A study of Mus musculus with 6 samples.

Results

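The genes described here make and reshape the phospholipids of cell membranes and lipoproteins: Chka and Chkb, Pcyt1a, Pcyt2, Cept1, Chpt1, Pemt, Lpcat1, Lpcat3 and Pltp. They were chosen by name. For each, the row of the array table annotated with that symbol and no other was used. This gave 9 of the 10 genes, each with 1 row, out of 19938 genes tested. Expression of Chkb was not analysed here because its row also carries the symbol of another gene. The RNA came from mucosa scraped from the jejunum of mice labelled C57/BL, 8 to 10 weeks old, fed regular chow with free access to food. One group was the transgenic line ISR2, made to overactivate SREBP2 in the intestine, and the other was wild type littermates, with 3 arrays each. The sources used here do not give the construct or the promoter that drives it. Nothing in the labels ties each array to its own mouse, so p-values measure only the spread between these samples, which may be technical.

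Phosphatidylcholine and phosphatidylethanolamine are the main membrane phospholipids, and phosphatidylcholine also coats the chylomicrons in which enterocytes export dietary fat. Both are made by parallel branches. A kinase phosphorylates choline or ethanolamine, a CTP-dependent enzyme activates the product to CDP-choline (Pcyt1a) or CDP-ethanolamine (Pcyt2), and a transferase of the last step joins it to diacylglycerol. Lysophospholipid acyltransferases then exchange the fatty acids of the finished lipid, and the secreted protein encoded by Pltp moves phospholipids between lipoproteins. SREBP2, the Srebf2 product, activates the genes of cholesterol synthesis and uptake. It binds sterol regulatory elements near the start of its target genes, often beside CCAAT boxes and GC boxes. LXR, a nuclear receptor that senses oxysterols, is a known regulator of Lpcat3 and Pltp and binds direct repeats called DR4.

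Of the 9 measured genes, 2 rose in ISR2 mucosa and none fell, by limma with Benjamini-Hochberg adjustment over all 19938 genes at a threshold of 0.05. The 2 were Pltp, by 2.75 on the log2 scale, and Lpcat3, by 0.82. Over all genes, 1.79% rose, 1.23% fell and 3.02% passed in either direction. The other 7 genes did not pass, and 5 genes of the 9 had an unadjusted p under 0.05, against 13.1% of all genes. The median log2 change of the 9 was -0.03, beside -0.06 over all genes. Their median absolute log2 change was 0.33, beside 0.14 over all genes. The rises were those of a remodelling and a transfer gene. Chka, Pcyt1a, Cept1 and Chpt1 of phosphatidylcholine synthesis had log2 changes between -0.38 and -0.11, and Pemt one of -0.03. Pcyt2, of phosphatidylethanolamine synthesis, differed by 0.52, and Lpcat1, also a remodelling gene, by 0.14. None of these passed, and a difference between synthesis and remodelling genes was not tested.

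The sequences before the transcription start show which letters of known regulatory motifs stand near the genes that rose and near the enzyme that sets the pace of phosphatidylcholine synthesis. They are from RefSeq (GRCm38.p6), run 5′ to 3′ on the strand of the gene, and end at the base before the annotated start, 250 bases each. Of the 10 named genes, 9 had an entry in the promoter table, with 14 entries in all. Pcyt2 had none, and Chkb, whose expression was not analysed, is among the 9. Capitals mark matches on either strand to the sterol regulatory element letters TCACNCCAC, the CCAAT box CCAAT and the GC box GGGCGG, of which 2 can share bases where GC boxes overlap.
Pltp, chr2:164857709-164857958, minus strand: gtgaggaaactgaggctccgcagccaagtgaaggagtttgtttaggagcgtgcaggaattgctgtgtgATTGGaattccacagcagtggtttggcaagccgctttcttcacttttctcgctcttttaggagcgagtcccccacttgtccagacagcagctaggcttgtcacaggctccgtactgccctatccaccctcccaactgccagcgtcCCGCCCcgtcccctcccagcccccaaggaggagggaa
Lpcat3, chr6:124662854-124663103, plus strand: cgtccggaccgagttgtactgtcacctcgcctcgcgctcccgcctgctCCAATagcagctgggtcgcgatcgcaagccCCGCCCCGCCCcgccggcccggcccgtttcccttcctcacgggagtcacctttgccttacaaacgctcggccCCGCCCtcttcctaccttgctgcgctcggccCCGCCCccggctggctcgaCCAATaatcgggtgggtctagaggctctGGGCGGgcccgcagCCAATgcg
Pcyt1a, chr16:32430671-32430920, plus strand, the first of 3 annotated starts: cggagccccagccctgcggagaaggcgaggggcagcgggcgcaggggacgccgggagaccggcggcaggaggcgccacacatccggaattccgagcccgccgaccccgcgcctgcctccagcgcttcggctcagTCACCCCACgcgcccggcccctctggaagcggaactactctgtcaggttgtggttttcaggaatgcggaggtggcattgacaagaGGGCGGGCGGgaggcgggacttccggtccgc

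The letters TCACNCCAC were found in 1 of the 9 genes with an entry, Pcyt1a, as TCACCCCAC at chr16:32430805-32430813, from 116 to 108 bases before the first start. The window before its second start overlaps the first and holds the same match, and the window before the third holds none. Of 32851 promoter windows of this length 1.05% hold these letters, and of 27025 genes 1.22% have such a window. The Lpcat3 window holds 3 CCAAT boxes and 5 GC boxes, and the Pltp window 1 of each. CCAAT stood in 6 of the 9 genes and in 37.5% of all genes of the promoter table, counting any window of a gene, and GGGCGG in 8 of the 9 genes and in 35.4% of all genes. The E box CACGTG (6.86% of genes, 6.02% of windows) and the DR4 repeat (0.0148% of genes, 0.0152% of windows) were in none of the 14 windows. These matches are descriptions of letters, not of binding, and a missing match says only that the letters are not in the window.

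The labels were checked against Srebf2, the gene of the overactive factor. Its log2 values were 9.04, 9.15 and 9.50 in wild type replicates 1, 2 and 3 and 11.02, 10.85 and 11.16 in ISR2 replicates 1, 2 and 3, so the groups did not overlap. Since the construct is not given, it is not known whether this row reads the transgene, the mouse's own gene or both. Of 10 enterocyte markers the lowest log2 value in any array was 11.7, against array medians of 6.04 to 6.19. Of these, 1 fell and none rose. The log2 changes of 8 of the 10 were negative. For 5 of them every ISR2 array lay below every wild type array, which held for 13.9% of all genes. Their summed linear level was 78526 to 81138 in wild type and 66033 to 78546 in ISR2 arrays. Markers of T cells and intraepithelial lymphocytes fell in 5 of 10, with a summed level of 2490 to 3691 in wild type and 1135 to 1822 in ISR2. Of 8 myeloid markers 1 rose (Cd14), with sums of 1594 to 2182 and 1116 to 1799. Of 5 goblet markers 1 fell, with sums of 25323 to 30134 and 22793 to 24105. None of 5 B and plasma cell and none of 4 pancreatic markers passed, with sums of 1305 to 2399 against 867 to 2350 and of 231 to 287 against 188 to 228. Such sums weigh the brightest markers most. The log2 changes of all 5 B and plasma cell markers were negative (-0.60 to -0.30), as were those of 12473 of all 19938 genes. None of 10 smooth muscle, stroma and endothelial markers passed, but their mean log2 value was 9.19 in wild type replicate 2 and 8.64 in ISR2 replicate 2, against 7.18 to 7.81 in the other 4 arrays. The part of these cells in the results below was not tested. In bulk mucosa, fewer cells of a type and less RNA per cell cannot be told apart. Fits without both replicates 2, a choice made after seeing the data, are given beside the calls of phospholipid genes that they change.

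**Figure D1:**
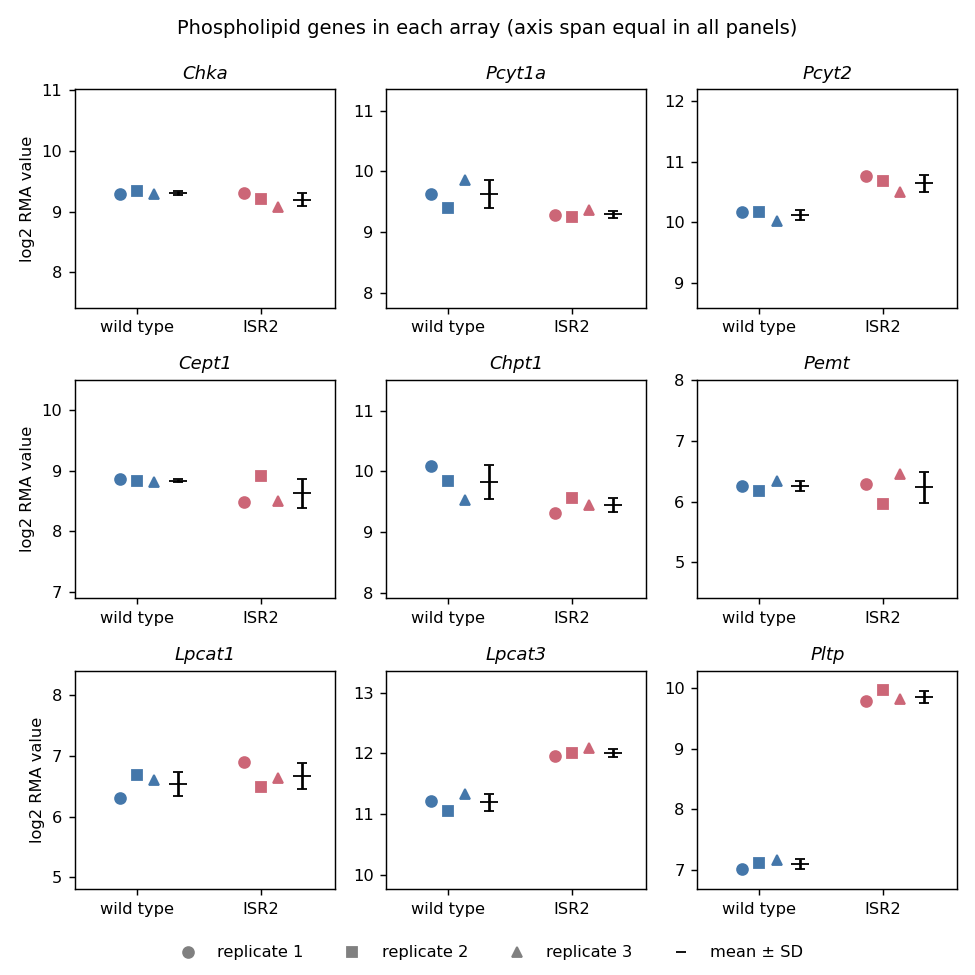
Log2 RMA values of the 9 genes in each array (y axis, with the same span in every panel), for wild type in blue and ISR2 in red; symbols mark replicates 1, 2 and 3 and the bars are mean ± SD (n = 3). The ISR2 arrays lie above the wild type arrays for Pltp, Lpcat3 and Pcyt2, just below them for Pcyt1a, and overlap with them for the other 5 genes.

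The first step, phosphorylation of choline, is catalysed by choline kinase, of which Chka encodes the alpha form. Chka stood at 9.28, 9.34 and 9.29 on the log2 scale in wild type replicates 1, 2 and 3 and at 9.31, 9.20 and 9.08 in ISR2 replicates 1, 2 and 3. ISR2 replicate 1 lay among the wild type arrays and the other ISR2 arrays lay lower. The log2 change was -0.11 ± 0.12 (SE, 3 arrays per group; adjusted p = 0.789 in limma), with a 95% interval of -0.38 to 0.17. It was -0.05 without ISR2 replicate 3 and -0.16 without ISR2 replicate 1, without passing in either fit. The groups were not told apart for this kinase, and the interval leaves out a change of the size seen for Lpcat3 in either direction. Wild type arrays were close together (SD 0.03), while the ISR2 arrays had an SD of 0.11.

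The enzymes that form CDP-choline and CDP-ethanolamine set the pace of their branches. Pcyt1a, of the choline branch, stood at 9.63, 9.40 and 9.86 in wild type replicates 1, 2 and 3 and at 9.27, 9.24 and 9.36 in ISR2. Every ISR2 array was below every wild type array, but the smallest gap was 0.04. The log2 change was -0.33 ± 0.14 (SE; 95% interval -0.66 to -0.01) and did not pass (adjusted p = 0.368 in limma). Wild type arrays varied more than ISR2 arrays, with SDs of 0.23 and 0.06. The change was -0.22 without wild type replicate 3 and -0.45 to -0.31 without each other array, passing in none of these fits. This is the gene whose promoter window holds the sterol regulatory element letters printed above.

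Pcyt2, of the ethanolamine branch, had values on the other side. It stood at 10.17, 10.17 and 10.02 in wild type replicates 1, 2 and 3 and at 10.76, 10.68 and 10.50 in ISR2. All ISR2 arrays were above all wild type arrays, with a smallest gap of 0.32. The mean went from 10.12 ± 0.09 to 10.65 ± 0.14 (SD, n = 3), a log2 change of 0.52 ± 0.13 (SE), or 1.44-fold (95% interval 1.18 to 1.76). It missed the threshold (adjusted p = 0.0757 in limma). It passed with array weights (adjusted p = 0.0114) and with each array centred on its median (adjusted p = 0.0435), and in none of the 6 fits without 1 array (adjusted p = 0.0893 to 0.285). Its change ranked 575th from the top among the 19938 genes.

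The difference between Pcyt1a and Pcyt2 was taken within each array, which asks whether the branches shifted unequally. Set to a wild type mean of zero, log2 Pcyt1a minus log2 Pcyt2 was -0.05, -0.28 and 0.33 in wild type replicates 1, 2 and 3 and -0.99, -0.94 and -0.64 in ISR2. All ISR2 arrays were lower, and the group difference was -0.86 ± 0.21 (SE). The exact two-sided permutation test gave p = 0.1, the smallest that 3 arrays against 3 can give, and 0.15 after Benjamini-Hochberg adjustment over the 3 pairs compared. This permutation test cannot reach 0.05 for this or the other pairs. The 95% interval of the difference, from the pooled SD of the arrays, was -1.44 to -0.28. Without 1 array at a time the difference was between -0.998 and -0.69.

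The last step is shared by Chpt1, a cholinephosphotransferase, and Cept1, which accepts both CDP-choline and CDP-ethanolamine. Chpt1 stood at 10.09, 9.84 and 9.53 in wild type replicates 1, 2 and 3 and at 9.32, 9.56 and 9.45 in ISR2. ISR2 replicate 2 lay just above wild type replicate 3, so the groups overlapped by these 2 arrays. The log2 change of Chpt1 was -0.38 ± 0.16 (SE; 95% interval -0.74 to -0.01; adjusted p = 0.364 in limma). It was -0.24 without wild type replicate 1, and -0.52 to -0.32 without each other array, and passed in none of these fits. Its residual SD over the arrays, 0.22, was the highest of the 9 genes, beside a median of 0.18 over all genes.

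Cept1 was nearly level in wild type, at 8.86, 8.83 and 8.81 in replicates 1, 2 and 3, and uneven in ISR2, at 8.48, 8.91 and 8.50. ISR2 replicate 2 was the highest of all 6 arrays and the other ISR2 arrays were the lowest. The log2 change was -0.20 ± 0.15 (SE; 95% interval -0.53 to 0.12; adjusted p = 0.636 in limma). Without ISR2 replicate 2, one of the arrays with the most smooth muscle signal, it was -0.34, and it did not pass there either (adjusted p = 0.235). It was -0.13 without ISR2 replicate 1 and -0.14 without ISR2 replicate 3. Within arrays, Cept1 minus Chpt1 differed between groups by 0.17 ± 0.17 (SE; 95% interval -0.30 to 0.65 from the pooled SD; exact two-sided permutation p = 0.4, adjusted p = 0.4), and the groups overlapped. That difference was 0.05 without wild type replicate 1, 0.094 without ISR2 replicate 2, 0.31 without wild type replicate 3 and 0.084 without replicate 2 of both groups.

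Pemt makes phosphatidylcholine by methylating phosphatidylethanolamine, a route best known from the liver. Its log2 values were 6.27, 6.18 and 6.34 in wild type replicates 1, 2 and 3 and 6.29, 5.96 and 6.45 in ISR2. The ISR2 arrays held both the lowest and the highest value. The log2 change was -0.03 ± 0.15 (SE; 95% interval -0.37 to 0.32; adjusted p = 0.97 in limma), and its sign turned with array weights (0.037), median centring (0.0202) and quantile normalization (0.0084). No background value was used, so detection of Pemt in these arrays was not shown.

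**Figure D2:**
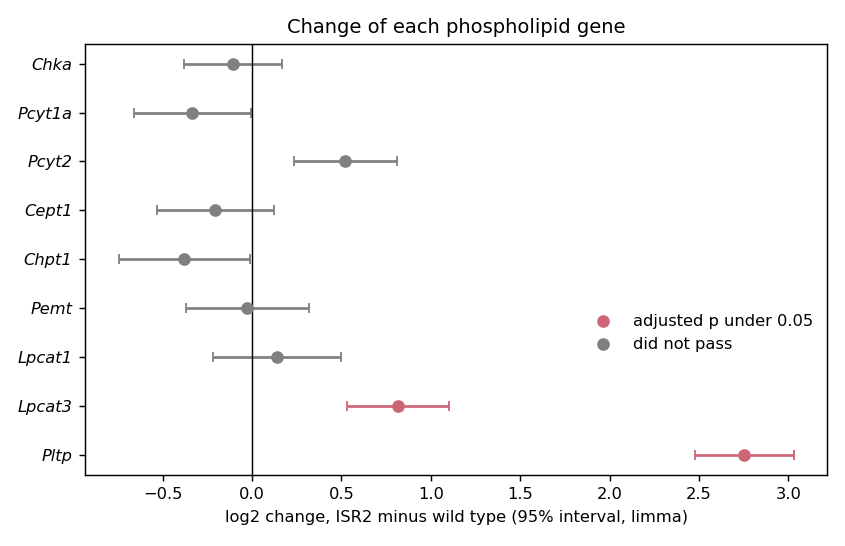
Log2 change of each gene (x axis, ISR2 minus wild type) with its 95% interval from limma, in the order of the pathway; red marks genes with an adjusted p under 0.05. Pltp at 2.75 and Lpcat3 at 0.82 passed, and Pcyt2 at 0.52 was the next highest.

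Among the acyltransferases, Lpcat3 changed and Lpcat1 did not pass. Lpcat3 encodes the enzyme that loads polyunsaturated fatty acids onto lysophosphatidylcholine and is the main such enzyme of the intestine. It stood at 11.21, 11.05 and 11.32 in wild type replicates 1, 2 and 3 and at 11.95, 12.00 and 12.08 in ISR2, with a smallest gap of 0.63 between the groups. The mean rose from 11.19 ± 0.14 to 12.01 ± 0.06 (SD, n = 3), a log2 change of 0.82 ± 0.13 (SE) or 1.76-fold (95% interval 1.45 to 2.15; adjusted p = 0.00788 in limma). The ISR2 arrays were closer to each other than the wild type arrays were. The gene passed in all 6 fits without 1 array (adjusted p = 0.0162 to 0.0426). Without replicate 2 of both groups the log2 change was 0.75 and the call was lost (adjusted p = 0.053), in a fit with 4 arrays.

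Lpcat1 encodes an acyltransferase of another family, best known for making the saturated phosphatidylcholine of lung surfactant. Its log2 values were 6.31, 6.69 and 6.61 in wild type replicates 1, 2 and 3 and 6.91, 6.48 and 6.64 in ISR2. The groups overlapped, and both the lowest and the highest array were replicates 1. The log2 change was 0.14 ± 0.16 (SE; 95% interval -0.22 to 0.50; adjusted p = 0.796 in limma). It was 0.025 without ISR2 replicate 1, 0.026 without wild type replicate 1, 0.24 without ISR2 replicate 2 and 0.22 without wild type replicate 2, and 0.31 without replicate 2 of both groups. It passed in none of these fits (adjusted p = 0.509 to 0.987). The values of Lpcat1 lay not far above the array medians of 6.04 to 6.19. With no background value used, detection of Lpcat1 was not shown, which also limits its comparison with Lpcat3.

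Within arrays and relative to the wild type mean, Lpcat1 minus Lpcat3 was -0.24, 0.30 and -0.06 in wild type replicates 1, 2 and 3 and -0.39, -0.86 and -0.78 in ISR2. The groups did not overlap, with ISR2 replicate 1 nearest to wild type. They differed by -0.68 ± 0.21 (SE; 95% interval -1.28 to -0.08 from the pooled SD), with an exact two-sided permutation p of 0.1 and an adjusted p of 0.15. The difference was -0.82 to -0.53 without 1 array at a time and -0.44 without replicate 2 of both groups.

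**Figure D3:**
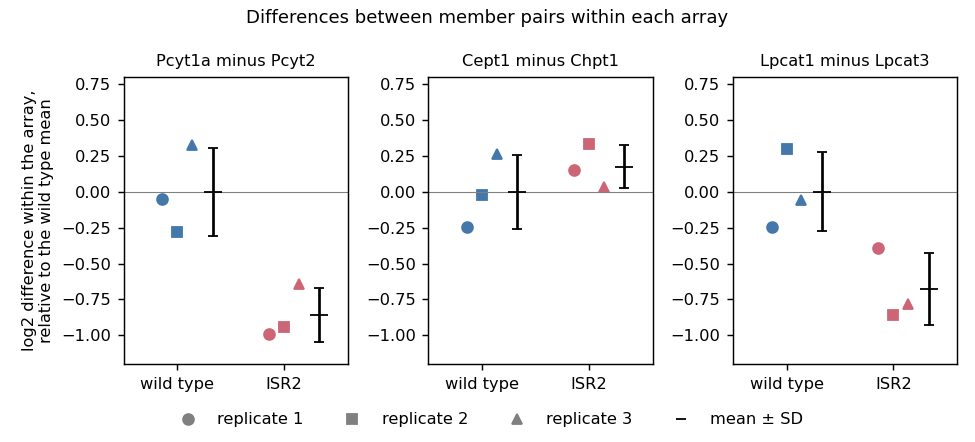
Difference between the log2 values of paired genes within each array, set to a wild type mean of zero (y axis), for wild type in blue and ISR2 in red, with symbols for the replicates and bars for mean ± SD (n = 3). ISR2 arrays lie below all wild type arrays for Pcyt1a minus Pcyt2 and for Lpcat1 minus Lpcat3, and overlap them for Cept1 minus Chpt1.

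Pltp had the largest change of the 9 genes. Its log2 values were 7.01, 7.12 and 7.17 in wild type replicates 1, 2 and 3 and 9.78, 9.97 and 9.81 in ISR2. The groups were separated by at least 2.61, while the range within a group was 0.15 in wild type and 0.19 in ISR2. The mean rose from 7.10 ± 0.08 to 9.85 ± 0.10 (SD, n = 3), by 2.75 ± 0.12 (SE), or 6.74-fold (95% interval 5.57 to 8.17; adjusted p = 2.87e-06 in limma). With no background value used, detection of Pltp in the wild type arrays was not shown, which limits the reading of its fold. Among the rises of all 19938 genes Pltp ranked 38th and Lpcat3 ranked 300th. In the 6 fits without 1 array the log2 change was 2.70 to 2.79, and without replicate 2 of both groups it was 2.71 (adjusted p = 9.4e-05). Pltp is also made by macrophages. Of the 8 myeloid markers, Cd14 rose and the other 7 did not pass. Log2 changes were negative for 6 of the 8 and positive for 2, with a median of -0.21. Over all 19938 genes, 12473 were negative and the median was -0.06. The summed level of the 8 had ranges that overlapped between the groups, as given above. The part of macrophages in the rise of Pltp was not tested.

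All 3 ISR2 arrays lay on 1 side of all wild type arrays for 4 of the 9 genes, 3 above (Pltp, Lpcat3 and Pcyt2) and 1 below (Pcyt1a). Over all genes this held for 19.8%, with 5.87% above and 13.9% below. Residual SDs of the 9 genes ran from 0.08 (Chka) to 0.22 (Chpt1), with a median of 0.17, beside 0.18 over all genes. Pltp, at 0.09, and Lpcat3, at 0.11, were among the less variable genes of the table, with 9.09% and 15.6% of genes below them.

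**Figure D4:**
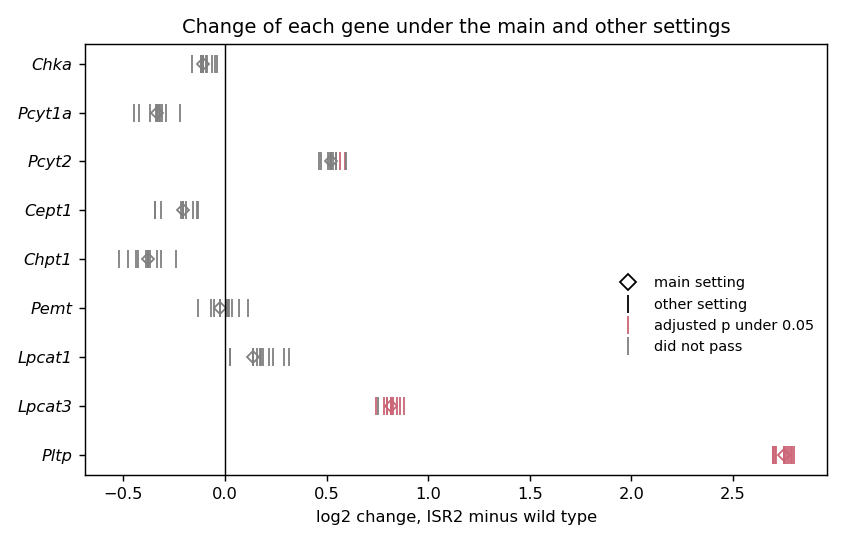
Log2 change of each gene (x axis) in the main setting (diamond) and in the other settings (ticks), with red for an adjusted p under 0.05 and grey for values that did not pass. Pltp stays between 2.70 and 2.80 and Lpcat3 between 0.74 and 0.88, while Pcyt2 passes in some settings and Pemt lies on both sides of zero.

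The rest of the phospholipid pathway was taken from a list of 56 other genes, of which 55 were measured. Of these, 1 rose, none fell and 54 did not pass, where 3.02% of all genes passed in either direction. An unadjusted p under 0.05 was found for 9 of the 55, 5 higher and 4 lower, where 13.1% of all genes had one. Their median log2 change was -0.06, beside -0.06 over all genes, and the median absolute change was 0.15. The groups did not overlap for 16 of the 55, 8 above and 8 below, where 19.8% of all genes did not overlap, 5.87% above and 13.9% below.

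The gene that rose was Cds1, a CDP-diacylglycerol synthase whose product feeds phosphatidylinositol and cardiolipin synthesis. It stood at 10.28, 10.17 and 10.43 in wild type replicates 1, 2 and 3 and at 10.97, 10.91 and 11.30 in ISR2, without overlap. The log2 change was 0.77 ± 0.15 (SE), with an adjusted p of 0.0257 in limma. The call was lost when wild type replicate 1 (adjusted p = 0.117) or wild type replicate 2 (0.112) was left out. It was also lost without ISR2 replicate 1 (0.0879), without ISR2 replicate 3 (0.0773) and without replicate 2 of both groups (0.0729). The change was 0.65 to 0.81 in these 5 fits. The paralog Cds2 differed by 0.13 (adjusted p = 0.764), and the difference between the paralogs was not tested.

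A further 4 genes of this list had an adjusted p between 0.05 and 0.10 in limma and are named because of those values. Pgs1, which makes the precursor of cardiolipin from CDP-diacylglycerol, differed by 0.69 ± 0.16 (SE; adjusted p = 0.0604), and Agps, an ether lipid synthase of peroxisomes, by 0.48 ± 0.12 (adjusted p = 0.0702). Lower values were measured for Lpgat1, a lysophospholipid acyltransferase, at -0.51 ± 0.12 (adjusted p = 0.0757), and Pnpla7, a lysophospholipase, at -0.60 ± 0.16 (adjusted p = 0.0922). For each of the 4 the groups did not overlap. Pgs1 passed 0.05 with array weights, quantile normalization, a filter on dim genes and the replicate number as a block. Pgs1 also passed without ISR2 replicate 2 and without replicate 2 of both groups. Agps passed 0.05 with array weights and quantile normalization, Lpgat1 with array weights, and Pnpla7 in no setting.

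No gene passed in the remaining groups of the list. The 6 genes listed under choline uptake, of the Slc44a family and Slc5a7, had log2 changes from -0.30 to 0.05. The 3 other enzymes of the CDP-choline and CDP-ethanolamine branches lay between -0.02 and 0.21, and the 3 phosphatidylserine enzymes between -0.21 and 0.28. The 8 other acyltransferases ran from -0.51 to 0.16, the 17 phospholipases and turnover enzymes from -0.60 to 0.49, the 5 ether lipid genes from -0.33 to 0.54, and the 6 other transfer proteins from -0.24 to 0.25. Pltp, at 2.75, was thus outside the range of these transfer proteins, and Lpcat3, at 0.82, outside that of the other acyltransferases; these differences were not tested.

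**Figure D5:**
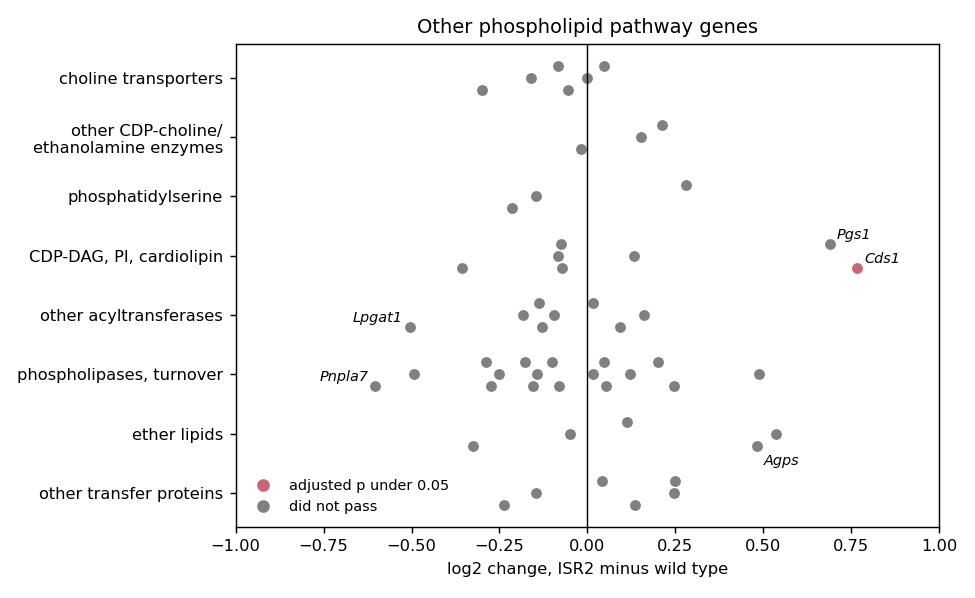
Log2 change (x axis, ISR2 minus wild type) of the 55 other phospholipid genes, 1 point each, in the groups of the pathway list, with red for an adjusted p under 0.05 and names for genes under 0.10. All values lie between -0.60 and 0.77, and Cds1 is the only gene past the threshold in the main setting.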

How the data were processed

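Total RNA of the 6 jejunal samples was labelled with biotin and hybridised to whole-transcript arrays, per the labels' protocols. The authors deposited log2 values from RMA, as the submitters' processing notes name it; the scale was read from their range of 1.44 to 14.8. RMA brings the arrays to a common distribution, so a change is measured roughly against most other genes. The deposited values still had array medians of 6.04 to 6.19 and a median log2 change of -0.06 over all genes. Leftover background compresses changes of dim genes. The sources used here do not give the version of RMA, a build or filters. Genes were rows with 1 symbol in the array annotation (21789 of 35556 rows; 1621 had several and 12146 none), keeping a gene's row with the highest mean over the arrays.

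Groups came from the titles. ISR2 was compared with wild type in limma 3.58.1 (lmFit, then eBayes; R 4.3.3), with no covariates and two-sided p-values. Pairs of genes were compared by exact permutation over arrays; Chka against Chkb could not be computed. Named were the 10 members, Srebf2 and other pathway genes past the threshold, and Cds2 and genes under 0.10 were added after their values were seen. Members and lists were chosen with earlier results of these data known. Alternatives were eBayes with a trend or robust, array weights, other scalings, a filter, other row rules, a replicate block, a threshold of 0.10 and arrays left out. The fit was tested on simulated data with noise drawn independently for each gene and array, so deviations shared across genes were not covered. Figures used matplotlib 3.10.9 in Python 3.11.15. The number of arrays limits the precision.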

Additional observations from a re-analysis of the deposited data

How the results depend on the processing

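The count of measured members past the threshold was 2 or 3 in all 17 other settings but 1. It was 1 without replicate 2 of both groups, chosen after seeing the data, where Lpcat3 missed the threshold with fewer arrays. It was 3, with Pcyt2 added, with array weights, median centring and an adjusted p of 0.10. Pltp passed in all 17. The count of other pathway genes moved more, from 1 to 5 with array weights (4 higher, 1 lower), 5 at an adjusted p of 0.10, 3 with quantile normalization and 2 with a filter on dim genes. Calls over all genes moved too, from 602 to 1268, 837, 630 and 629 in these settings. Leaving out 1 array at a time gave 0 to 2 other pathway genes, against 335 to 589 of all genes. It gave 0 when either of wild type replicates 1 and 2 or of ISR2 replicates 1 and 3 was left out. The cause was not tested, apart from the looser threshold and the smaller number of genes or arrays, which belong to those settings. Pemt, which never passed, changed sign with array weights (0.037), median centring (0.0202), quantile normalization (0.0084), without wild type replicate 3 or ISR2 replicate 2 (leaving out 1 array at a time gave -0.134 to 0.113) and without replicate 2 of both groups (0.0698). The members' median, which was the value of Pemt in most settings, lay between -0.07 and 0.11 on the log2 scale and changed sign in the same settings. Srebf2 lay between 1.68 and 1.91 and passed in every setting run. The pairs kept their signs in every setting run. With the replicate number as a block, 2 members and 2 other pathway genes passed (Cds1 and Pgs1), against 778 of all genes, where 602 passed without it; the pairs' differences are the same by construction. Deviations of same-numbered arrays from their group means correlated, across genes, at -0.02, 0.32 and 0.54 for numbers 1, 2 and 3. For numbers 2 and 3 these were the highest values of the arrays involved. Wild type replicate 1 correlated best with ISR2 replicate 2 (0.20). Whether same-numbered samples share more than a number was not tested. Dim rows such as Pemt and Lpcat1 have no detection value here.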
